A study of Homo sapiens with 12 samples.

Results

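The genes described here encode the subunits of integrins, the paired alpha and beta receptors through which cells hold on to their matrix, and of laminins, the three-chain proteins of basement membranes that several integrins bind. They were taken by symbol, as every gene of the array annotation named ITGA, ITGB, LAMA, LAMB or LAMC followed by a number or a letter. This gave 35 genes, 25 of integrins and 10 of laminins, of 19775 genes with a probe set of their own. Where several probe sets measured 1 gene, it was represented by the probe set whose mean over the 12 arrays was highest. ITGB6 was named only together with another gene and was not analysed.

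Expression was compared between clones of SaOS-2 transfected with CD99 (Sa/CD99) and parental SaOS-2, an established human osteosarcoma cell line, at days 0, 7 and 14 of culture in osteogenic medium. The groups were Sa/CD99 on the 3 days (clones wt22 and wt36, stably transfected and selected with neomycin, 1 array per clone and day) and SaOS-2 on the same days (2 arrays per day, numbered 1 and 2). The differentiation medium, given after seeding, held less serum than the growth medium together with ascorbic acid and beta-glycerophosphate, and both lines received it. Nothing in the labels tells whether parental replicates were grown apart, and p-values then reflect the spread among these arrays alone, possibly a technical one.

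The CD99 probe sets differed in direction between the lines. In the dimmer probe set the log2 range was 6.67 to 8.88 on the arrays labelled Sa/CD99, against 11.26 to 11.88 in SaOS-2. With the other, both arrays labelled Sa/CD99 lay slightly above both SaOS-2 arrays on each day (means of 12.32, 12.59 and 12.70 at days 0, 7 and 14 on the arrays labelled Sa/CD99, against 12.30, 12.52 and 12.66 in SaOS-2). Whether the transfected sequence carries the target of either probe set was not tested, and the real-time PCR of CD99 that the study also ran on these samples is not analysed here. Directions between the lines are those of the labels. The clones differed more from each other than the parental arrays did (SD of the difference within a pair 0.39 to 0.42 for clones and 0.12 to 0.14 for SaOS-2, on the log2 scale). Of 9 osteoblast markers with a probe set, 7 exceeded a signal of 100 on at least 4 arrays, among them RUNX2, SP7, ALPL and COL1A1, while SPP1 and DMP1 did so on none. No marker of leukocytes (4 genes) or endothelium (4 genes) did. The cultures were measured in bulk, so a change in the number of cells that express a gene and a change in RNA per cell cannot be told apart.

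As background, an integrin needs 1 alpha and 1 beta chain, and the pair decides the ligand: alpha-3, alpha-6 and alpha-7 bind laminins, alpha-10 and alpha-11 bind collagens, and alpha-5 and alpha-V bind matrix proteins through the RGD motif. A laminin is assembled from 1 alpha, 1 beta and 1 gamma chain. Osteoblasts attach to their own collagen-rich matrix largely through integrins with the beta-1 chain.

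Of the 35 genes, 14 passed the filters and were tested: ITGA3, ITGA4, ITGA5, ITGA6, ITGA7, ITGA10, ITGA11, ITGAE, ITGAV, ITGB4, ITGB5, LAMA4, LAMA5 and LAMB1. The filters kept probe sets with a signal above 100 (6.64 on the log2 scale) on at least 4 of 12 arrays and with an interquartile range above the median. The second of these keeps probe sets that vary over the arrays, so counts among the tested genes do not describe the families as a whole. A further 4 genes had signal but varied too little (ITGB1, LAMB2, LAMB3 and LAMC1). The remaining 17 stayed under the signal minimum, and 16 of these exceeded it on no array. The map of all 35 genes over the 12 arrays shows both sets beside the tested genes.

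**Figure D1:**
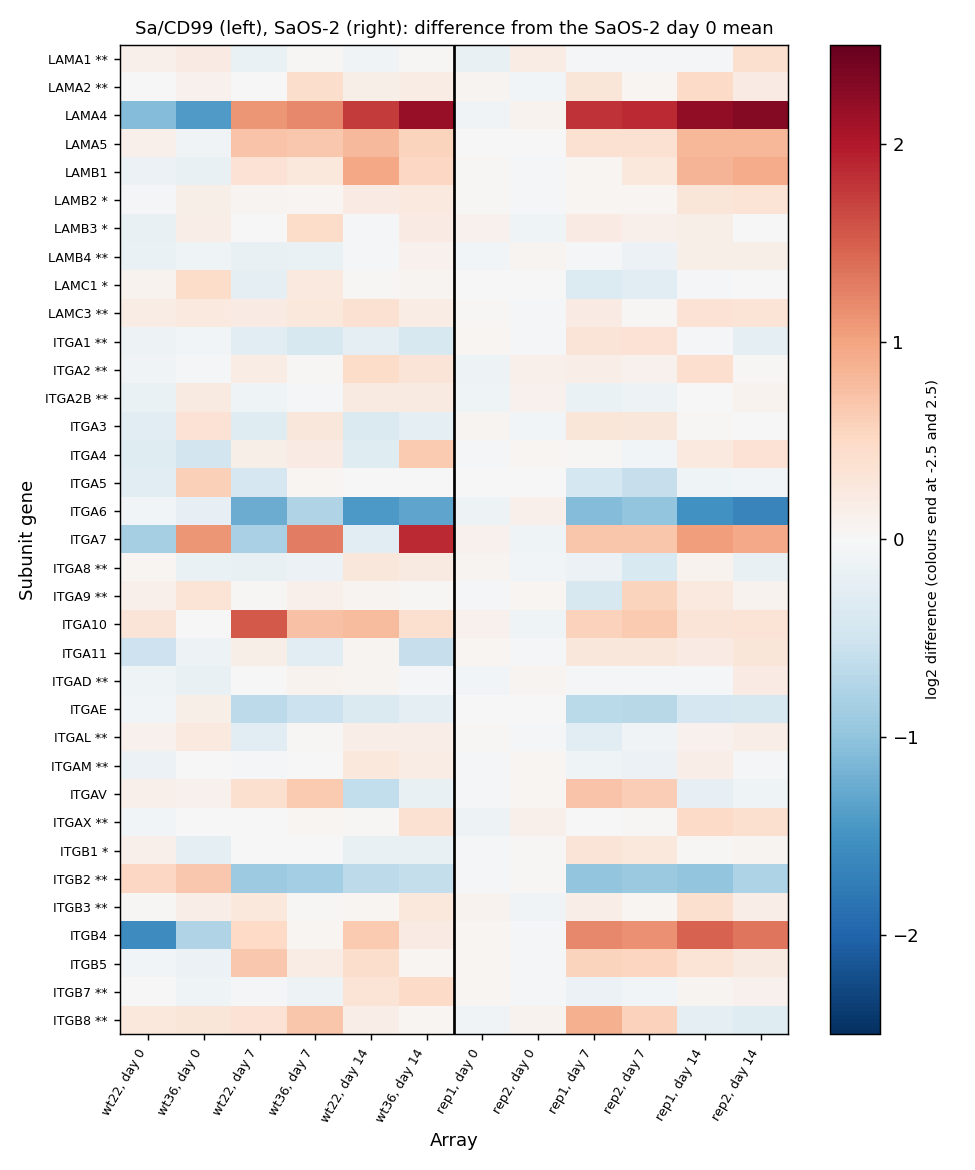
Each row is 1 of the 35 subunit genes and each column 1 array, with the arrays labelled Sa/CD99 left of the line and SaOS-2 right of it; colours give the log2 difference from that gene's own SaOS-2 day 0 mean, and genes marked * had too small an interquartile range and genes marked ** too little signal to be tested. LAMA4 turns red and ITGA6 and ITGB2 turn blue with time in both lines, while most genes marked ** stay pale. ITGB4 turns red in SaOS-2 and goes from blue to near white or pale red in the arrays labelled Sa/CD99.

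The first question was how the subunits moved in differentiation medium within each line. In the arrays labelled Sa/CD99, 4 of the 14 tested genes rose by day 7 (ITGA10, ITGB4, LAMA4 and LAMA5) and 2 fell (ITGA6 and ITGAE). Of these, ITGA10 had passed the signal filter through its day 7 arrays, ITGA6 mainly through its day 0 arrays and LAMA4 mainly through its later arrays. The calls of these genes since day 0 carry that limit in either line. Over all 6644 genes tested, 8.22% were called higher and 7.59% lower at day 7 in the arrays labelled Sa/CD99. In SaOS-2, 3 rose by day 7 (ITGAV, ITGB4 and LAMA4) and 2 fell (ITGA6 and ITGAE), beside 10.9% called higher and 9.44% lower among all genes. By day 14 the same 4 genes, ITGB4, LAMA4, LAMA5 and LAMB1, had risen and ITGA6 had fallen in each line. The share of all genes called at day 14 was 7.42% higher and 12.3% lower in the arrays labelled Sa/CD99, and 7.42% higher and 7.31% lower in SaOS-2. A gene was called when limma's Benjamini-Hochberg adjusted p over all 12894 probe sets was at most 0.05 and the change at least 1.5-fold. The median log2 change of the 14 genes was 0.44 and 0.40 at days 7 and 14 in the arrays labelled Sa/CD99 and 0.34 and 0.29 in SaOS-2, against -0.02, -0.03, -0.04 and -0.03 over all genes tested. In fits of only the arrays compared, 1 of the 6 Sa/CD99 calls at day 7 (LAMA4) and 2 of the 5 at day 14 (LAMA4 and ITGA6) were kept. Both lines' later days were set against their own day 0 arrays, so day 7 and day 14 share those arrays.

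**Figure D2:**
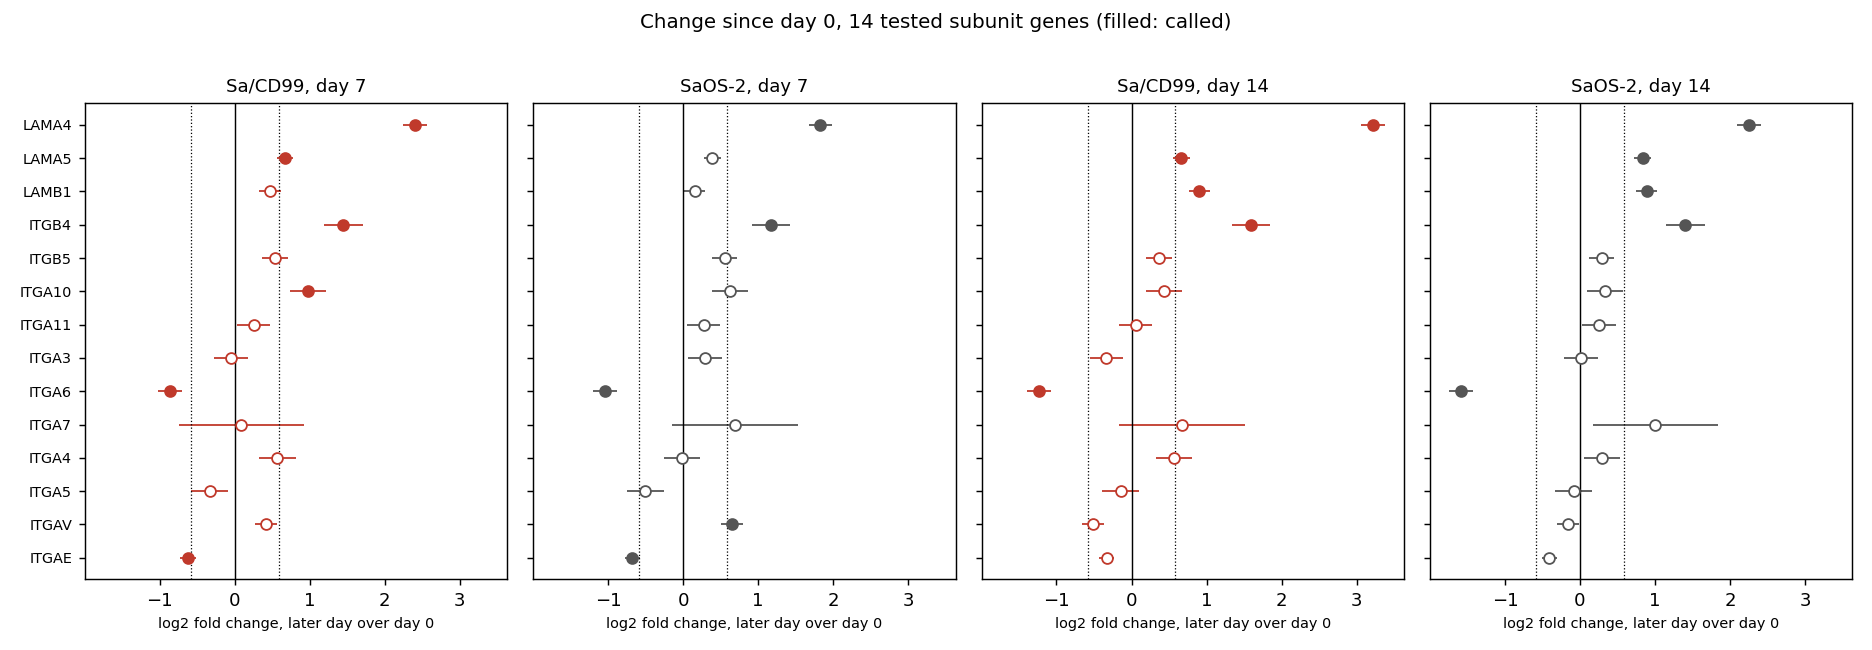
Log2 fold change since day 0 (points) with its SE (bars) for the 14 tested genes, arrays labelled Sa/CD99 left of SaOS-2 on each day; filled points were called and dotted lines mark 1.5-fold. LAMA4 reaches 3.22 in the arrays labelled Sa/CD99 and 2.25 in SaOS-2 at day 14, and ITGA6 -1.24 and -1.58.

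Laminin alpha chains carry the part of the molecule that integrins recognise, and LAMA4 encodes the alpha-4 chain, known from the basement membranes of vessels, muscle and fat. LAMA4 log2 values were 5.55, 7.75 and 8.39 in clone wt22 and 5.21, 7.83 and 8.82 in clone wt36 at days 0, 7 and 14. The SaOS-2 values were 6.55, 8.43 and 8.85 in replicate 1 and 6.72, 8.50 and 8.92 in replicate 2. Every array of day 7 and day 14 lay above every array of day 0 of its own line. By day 14 LAMA4 had risen in both lines, with fitted log2 changes of 3.22 in the arrays labelled Sa/CD99 (SE 0.16, adjusted p = 7.63e-06 by limma) and 2.25 in SaOS-2 (adjusted p = 5.59e-05). By day 7 the fitted changes were 2.41 in the arrays labelled Sa/CD99 (adjusted p = 3.02e-05) and 1.83 in SaOS-2 (adjusted p = 0.00014). Of the day 0 values, those labelled Sa/CD99 and 1 of the SaOS-2 arrays lay under the signal minimum. The probe set exceeded that minimum on 9 arrays, those of days 7 and 14 and SaOS-2 replicate 2 of day 0. It thus passed the signal filter through the days on which it is high, and its calls since day 0 carry that limit. Set against that minimum instead, LAMA4 was at least 2.21-fold higher at day 7 and at least 3.89-fold higher at day 14 in the arrays labelled Sa/CD99. Both other LAMA4 probe sets that passed the filters lay 0.73 to 2.15 above day 0 on the log2 scale at each day in each line. Their day 0 arrays all lay under the signal minimum, and they passed the signal filter through later arrays alone. Their differences from day 0 are thus a description with no test. At day 7 in the arrays labelled Sa/CD99, 1 of these probe sets had a mean of 6.58, under the minimum. The other was at least 1.09-fold above it. In the other comparisons these bounds ran from at least 1.54-fold to at least 2.62-fold.

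LAMA5 encodes the alpha-5 chain, the most widespread laminin alpha chain of adult basement membranes. Its log2 values at days 0, 7 and 14 were 7.90, 8.48 and 8.59 in clone wt22 and 7.69, 8.44 and 8.33 in clone wt36, and in SaOS-2 7.76, 8.16 and 8.61 in replicate 1 and 7.79, 8.16 and 8.61 in replicate 2. The later arrays of each line lay above those of day 0. LAMA5 rose by 0.67 at both days in the arrays labelled Sa/CD99 (SE 0.11, adjusted p = 0.00234 at day 7 and 0.00287 at day 14 by limma) and by 0.84 at day 14 in SaOS-2 (adjusted p = 0.00123). At day 7 in SaOS-2 the difference of 0.39 stayed under 1.5-fold (adjusted p = 0.0219). The Sa/CD99 calls sat close to the fold threshold: without the day 0 array of clone wt36 the changes were 0.56 at both days, and without the day 14 array of clone wt22 the day 14 change was 0.54, all under 1.5-fold.

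LAMB1 encodes the beta-1 chain, which is part of many laminins. Log2 values at days 0, 7 and 14 were 7.69, 8.19 and 8.80 in clone wt22 and 7.65, 8.09 and 8.34 in clone wt36. Parental values were 7.85, 7.87 and 8.68 in replicate 1 and 7.80, 8.09 and 8.75 in replicate 2. At day 14 every array lay above the day 0 arrays of its line, by 0.91 on average in the arrays labelled Sa/CD99 (SE 0.15, adjusted p = 0.00243 by limma) and 0.89 in SaOS-2 (adjusted p = 0.00311). The day 7 differences of 0.47 in the arrays labelled Sa/CD99 and 0.15 in SaOS-2 were not called (adjusted p = 0.0326 and 0.42). A second LAMB1 probe set was called higher at both days in both lines, with log2 changes from 0.62 to 0.89.

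The other laminin chains with signal varied little with the probe sets that stand for them. LAMC1, the gamma-1 chain present in most laminins, lay between 10.22 and 11.03 over the 12 arrays, and LAMB2, the beta-2 chain, between 8.83 and 9.22. LAMB3, a beta chain of epithelial laminins, ranged from 6.41 to 7.05. In a fit without the filters, none of these 3 genes or ITGB1 was called in any of the 9 comparisons, and their mean log2 differences reached at most 0.33. A second LAMC1 probe set did pass the filters. It was not called, although both arrays labelled Sa/CD99 lay above both SaOS-2 arrays on each day, with differences of 0.36, 0.47 and 0.29 (SE 0.13, adjusted p = 0.229, 0.0857 and 0.291 by limma). LAMA1, LAMA2, LAMB4 and LAMC3 lay under the signal minimum on every array.

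The sequences before the starts of the 3 laminin genes that rose in both lines by day 14, and of ITGA6, which fell in both, are shown to compare genes that moved together. They are the 250 bases before a RefSeq start of each gene (GRCh38.p14), read 5′ to 3′ on the gene's strand: LAMA4 chr6:112254568-112254817 on the minus strand, LAMA5 chr20:62367313-62367562 on the minus strand, LAMB1 chr7:108003162-108003411 on the minus strand and ITGA6 chr2:172427086-172427335 on the plus strand. Capitals mark matches, on either strand, to the GC box (GGGCGG), the TATA box (TATAAA), the AP-1 site (TGANTCA) or the CCAAT box (CCAAT). Matches may overlap.
LAMA4: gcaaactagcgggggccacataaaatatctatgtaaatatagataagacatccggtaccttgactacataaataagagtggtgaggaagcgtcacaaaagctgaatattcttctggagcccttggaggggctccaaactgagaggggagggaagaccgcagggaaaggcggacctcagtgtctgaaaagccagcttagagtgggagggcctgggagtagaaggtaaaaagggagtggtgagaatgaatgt
LAMA5: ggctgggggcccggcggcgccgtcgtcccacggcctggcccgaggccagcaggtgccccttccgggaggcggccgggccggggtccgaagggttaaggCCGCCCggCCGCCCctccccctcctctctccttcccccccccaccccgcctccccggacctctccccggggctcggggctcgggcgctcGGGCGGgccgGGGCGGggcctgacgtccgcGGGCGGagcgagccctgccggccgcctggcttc
LAMB1: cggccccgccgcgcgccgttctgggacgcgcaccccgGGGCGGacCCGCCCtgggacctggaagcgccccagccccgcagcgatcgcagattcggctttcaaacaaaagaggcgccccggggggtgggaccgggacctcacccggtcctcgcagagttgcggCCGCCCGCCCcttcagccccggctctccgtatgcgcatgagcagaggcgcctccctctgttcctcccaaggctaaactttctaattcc
ITGA6: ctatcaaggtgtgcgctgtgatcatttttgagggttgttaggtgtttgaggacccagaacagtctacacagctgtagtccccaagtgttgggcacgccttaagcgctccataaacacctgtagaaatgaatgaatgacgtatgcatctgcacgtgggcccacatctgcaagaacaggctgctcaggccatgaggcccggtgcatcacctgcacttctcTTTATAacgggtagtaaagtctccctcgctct
The windows of LAMA5 and LAMB1 were alike and that of LAMA4 was not. LAMA5 had 82.8% G and C, 32 CpG dinucleotides and 5 GC boxes, and LAMB1 had 70.4%, 28 and 4. LAMA4 had 48.4% G and C, 5 CpG dinucleotides and no match to any of the 4 motifs. Over all 35116 windows of this length the medians were 58% G and C and 11 CpG dinucleotides, and 42.6% held a GC box, 10.7% a TATA box, 6.57% an AP-1 site and 32% a CCAAT box. The ITGA6 window held 1 TATA box, 50.8% G and C and 8 CpG dinucleotides. A second RefSeq start of ITGA6, 250 bases further on, gave a window with 71.6% G and C, 30 CpG dinucleotides and 3 GC boxes. Windows were found for 24 of the 35 genes. A match or its absence describes the letters in the window only.

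**Figure D3:**
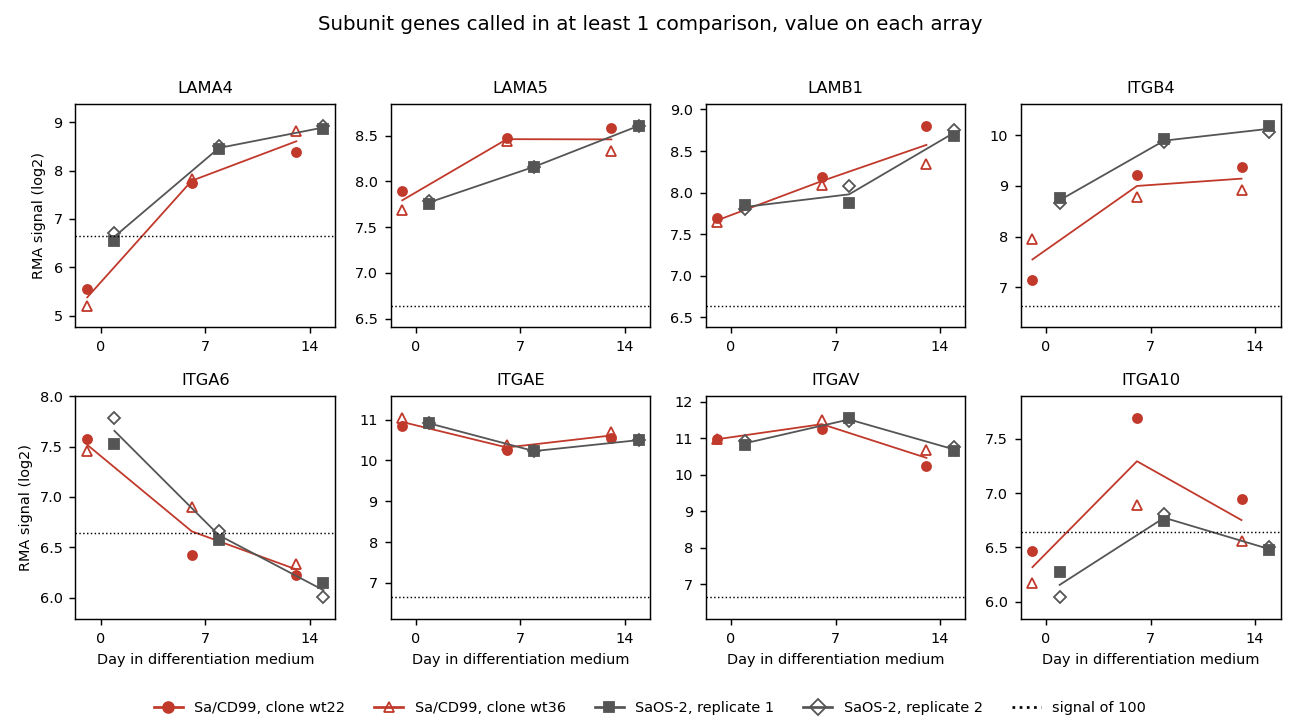
RMA signal (log2) on each of the 12 arrays at days 0, 7 and 14 for the 8 subunit genes called in at least 1 comparison, with red points for the arrays labelled Sa/CD99 (filled wt22, open wt36), grey points for SaOS-2, lines through group means and a dotted line at a signal of 100. LAMA4 and ITGB4 climb in both lines and ITGA6 declines, and on day 0 the LAMA4 values of 5.55 and 5.21 in the arrays labelled Sa/CD99 lie below those of SaOS-2.

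Among integrin beta chains, ITGB4 rose in both lines. It encodes the beta-4 chain, which pairs with alpha-6 to form the laminin receptor of hemidesmosomes. Log2 values at days 0, 7 and 14 were 7.15, 9.22 and 9.37 in clone wt22 and 7.96, 8.78 and 8.92 in clone wt36. In SaOS-2 they were 8.77, 9.92 and 10.19 in replicate 1 and 8.67, 9.87 and 10.07 in replicate 2. All later arrays lay above the day 0 arrays of their line. ITGB4 gained 1.45 and 1.59 at days 7 and 14 in the arrays labelled Sa/CD99 (SE 0.26, adjusted p = 0.00308 and 0.00243 by limma) and 1.17 and 1.41 in SaOS-2 (adjusted p = 0.00703 and 0.00478). A second probe set was called higher at both days in both lines as well (log2 changes 1.13 to 1.55). The third ITGB4 probe set lay above day 0 at day 14, by 1.23 in the arrays labelled Sa/CD99 and 0.90 in SaOS-2. At day 7 its differences of 0.62 and 0.57 were not called (adjusted p = 0.0649 and 0.0769 by limma). Its day 0 arrays all lay under the signal minimum, and it passed the signal filter through later arrays alone. The differences of this probe set from day 0 are thus a description with no test. Against that minimum it was at least 1.74-fold higher at day 14 in SaOS-2, while the day 14 mean of 6.63 in the arrays labelled Sa/CD99 lay under it.

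Its partner ITGA6, the alpha-6 chain, moved the other way. ITGA6 log2 values at days 0, 7 and 14 were 7.58, 6.42 and 6.22 in clone wt22 and 7.46, 6.90 and 6.34 in clone wt36, and in SaOS-2 7.53, 6.57 and 6.15 in replicate 1 and 7.79, 6.67 and 6.0 in replicate 2. All arrays of day 14 were under the signal minimum and below every day 0 array. Set against that minimum, ITGA6 was at least 1.83-fold lower at day 14 in the arrays labelled Sa/CD99 and at least 2.02-fold lower in SaOS-2. In the fit ITGA6 fell by 0.86 and 1.24 at days 7 and 14 in the arrays labelled Sa/CD99 (SE 0.16, adjusted p = 0.00395 and 0.000906 by limma) and by 1.04 and 1.58 in SaOS-2 (adjusted p = 0.00152 and 0.000302). The probe set exceeded the minimum on 6 arrays, those of day 0 and, at day 7, clone wt36 and SaOS-2 replicate 2. It thus passed the signal filter mainly through the day on which it is high, and these calls carry that limit. A second ITGA6 probe set lay 0.78 to 1.33 below day 0 in these comparisons, or at least 1.57-fold to 1.77-fold against the minimum. It passed the signal filter through its 4 day 0 arrays alone, so its difference from the later days is a description with no test. For the probe set that stands for ITGA6, the day 7 change in the arrays labelled Sa/CD99 was -0.56 without clone wt22, under 1.5-fold. Of 4 epithelial markers, EPCAM exceeded the signal minimum on all arrays and CDH1, KRT5 and KRT14 on none. The summed signal of the 4 was 338 to 345 at day 0, 356 to 455 at day 7 and 199 to 285 at day 14 on the arrays labelled Sa/CD99, and 362 to 442, 433 to 462 and 364 to 378 in SaOS-2. The part of this list in the results for ITGB4 and ITGA6 was not tested.

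ITGB5, the beta-5 chain that pairs with alpha-V, had log2 values of 11.16, 11.90 and 11.68 in clone wt22 and 11.08, 11.42 and 11.29 in clone wt36 at days 0, 7 and 14. In SaOS-2 they were 11.29, 11.80 and 11.58 in replicate 1 and 11.18, 11.78 and 11.46 in replicate 2. The values were highest at day 7 in each clone and among the SaOS-2 arrays. The day 7 differences of 0.54 in the arrays labelled Sa/CD99 and 0.55 in SaOS-2 passed the adjusted p (0.0354 and 0.0286 by limma, SE 0.17) and stayed under 1.5-fold. A second ITGB5 probe set was called higher at day 7 in both, by 1.13 and 0.85. ITGB1, the common partner of the collagen and laminin receptors, ranged from 12.50 to 13.05 over all arrays with the probe set that stands for it. In 2 further ITGB1 probe sets that passed the filters, values ranged from 10.96 to 11.79 and from 10.81 to 11.62, and no difference was called. At day 7 both arrays labelled Sa/CD99 lay below both SaOS-2 arrays in each, with differences of -0.56 and -0.44 (adjusted p = 0.0599 and 0.133 by limma), and at day 14 the same held with -0.33 and -0.35 (adjusted p = 0.247 and 0.262).

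ITGAV encodes the alpha-V chain, a receptor for vitronectin and bone sialoprotein. Log2 values at days 0, 7 and 14 were 10.98, 11.27 and 10.25 in clone wt22 and 10.97, 11.51 and 10.68 in clone wt36. In SaOS-2 they were 10.81, 11.57 and 10.65 in replicate 1 and 10.92, 11.47 and 10.75 in replicate 2. Day 7 arrays were the highest and day 14 arrays the lowest in each clone and among the SaOS-2 arrays. The day 7 change was called in SaOS-2 (0.66, SE 0.15, adjusted p = 0.00773 by limma) and was 0.41 in the arrays labelled Sa/CD99 (adjusted p = 0.054). The SaOS-2 call was lost without replicate 1 of day 7 (0.61, adjusted p = 0.0572) and without replicate 1 of day 0 (0.60, adjusted p = 0.0587). At day 14 the differences were -0.51 in the arrays labelled Sa/CD99 (adjusted p = 0.0239, under 1.5-fold) and -0.16 in SaOS-2 (adjusted p = 0.403).

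ITGAE encodes the alpha-E chain, known as the receptor of intraepithelial lymphocytes for E-cadherin. Log2 values at days 0, 7 and 14 were 10.84, 10.26 and 10.54 in clone wt22 and 11.05, 10.37 and 10.69 in clone wt36. In SaOS-2 they were 10.91, 10.24 and 10.49 in replicate 1 and 10.91, 10.22 and 10.51 in replicate 2. The gene was lowest at day 7 in each clone and among the SaOS-2 arrays, and its day 7 and day 0 arrays did not overlap in either line. ITGAE fell at day 7 by 0.62 in the arrays labelled Sa/CD99 (SE 0.10, adjusted p = 0.00219 by limma) and by 0.68 in SaOS-2 (adjusted p = 0.00143). The Sa/CD99 change was under 1.5-fold without the day 7 array of clone wt22 (-0.57), without the day 0 array of clone wt36 (-0.52) and after quantile normalization of the tested probe sets (-0.53). At day 14 the differences of -0.33 in the arrays labelled Sa/CD99 and -0.41 in SaOS-2 stayed under 1.5-fold (adjusted p = 0.0321 and 0.0173). PTPRC, CD3E, CD14 and SPI1, the leukocyte markers with a probe set, lay under the signal minimum on all arrays, and their summed signal was 70.7 to 79.0 on the arrays labelled Sa/CD99 and 66.6 to 83.1 in SaOS-2.

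The other leukocyte integrins gave little signal. ITGAD, ITGAL, ITGAM and ITGAX were under the minimum on every array. ITGB2, the beta-2 chain shared by these receptors, passed the filters only with a probe set that does not stand for the gene. Its log2 values at days 0, 7 and 14 were 7.38, 5.38 and 5.88 in clone wt22 and 7.49, 5.43 and 5.40 in clone wt36, and in SaOS-2 6.90, 4.81 and 5.06 in replicate 1 and 7.09, 5.03 and 5.54 in replicate 2. The day 0 arrays were all above the minimum and all later arrays below it. The probe set thus passed the signal filter through its 4 day 0 arrays alone, and its difference from the later days is a description with no test. Set against the minimum, the later arrays were at least 1.73-fold lower at each day in the arrays labelled Sa/CD99 and at least 1.28-fold lower in SaOS-2. The probe set that stands for ITGB2 exceeded the minimum on 2 arrays, both labelled Sa/CD99 at day 0, and lay between 5.58 and 5.97 on all later arrays.

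ITGA10 and ITGA11 encode collagen-binding alpha chains, the first known from cartilage and the second from fibroblasts. ITGA10 log2 values at days 0, 7 and 14 were 6.47, 7.70 and 6.94 in clone wt22 and 6.17, 6.89 and 6.56 in clone wt36, and in SaOS-2 6.27, 6.74 and 6.47 in replicate 1 and 6.04, 6.81 and 6.50 in replicate 2. Each clone and the SaOS-2 arrays were highest at day 7, and clone wt22 stood above the others there. The probe set exceeded the signal minimum on 5 arrays, those of day 7 and the day 14 array of clone wt22. It thus passed the signal filter through the day on which it is high, and the day 7 call carries that limit. The day 7 change was called in the arrays labelled Sa/CD99 (0.98, SE 0.24, adjusted p = 0.0134 by limma; at least 1.57-fold against the signal minimum, which both day 0 arrays were under) and was 0.62 in SaOS-2 (adjusted p = 0.0642). Without the day 7 array of clone wt22 it was 0.57 (adjusted p = 0.0588), and without the day 0 array of clone wt36 it was 0.83 (adjusted p = 0.0734). At day 14 the differences were 0.43 in the arrays labelled Sa/CD99 and 0.33 in SaOS-2 (adjusted p = 0.173 and 0.30).

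ITGA11 log2 values at days 0, 7 and 14 were 8.95, 9.61 and 9.52 in clone wt22 and 9.34, 9.18 and 8.87 in clone wt36. Those of SaOS-2 were 9.50, 9.73 and 9.67 in replicate 1 and 9.42, 9.73 and 9.76 in replicate 2. The clones went opposite ways since day 0, and no change was called (0.25 and 0.06 at days 7 and 14 in the arrays labelled Sa/CD99 and 0.27 and 0.25 in SaOS-2, SE 0.22, adjusted p from 0.338 to 0.853 by limma). The other collagen-binding chains, ITGA1 and ITGA2, lay under the minimum on all arrays, as did ITGA8, ITGA9, the platelet chain ITGA2B and the beta chains ITGB3, ITGB7 and ITGB8.

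ITGA3, ITGA4 and ITGA5 were not called at any day in either line. ITGA5, the alpha-5 chain of the fibronectin receptor, had log2 values of 9.12, 8.98 and 9.40 in clone wt22 and 9.99, 9.45 and 9.41 in clone wt36 at days 0, 7 and 14, and in SaOS-2 9.41, 8.96 and 9.30 in replicate 1 and 9.40, 8.82 and 9.34 in replicate 2. Its largest difference was -0.51 at day 7 in SaOS-2 (SE 0.25, adjusted p = 0.125 by limma). ITGA3, the alpha-3 chain of a laminin receptor, had 8.63, 8.61 and 8.56 in clone wt22 and 9.28, 9.21 and 8.69 in clone wt36, and in SaOS-2 8.97, 9.22 and 8.95 in replicate 1 and 8.86, 9.19 and 8.90 in replicate 2. Clone wt36 lay above clone wt22 in ITGA3 on each day, and the largest difference since day 0 was -0.33, at day 14 in the arrays labelled Sa/CD99 (SE 0.22, adjusted p = 0.252). ITGA4, the alpha-4 chain that binds VCAM1 and fibronectin, had 8.52, 8.98 and 8.53 in clone wt22 and 8.36, 9.03 and 9.49 in clone wt36, and in SaOS-2 8.78, 8.86 and 9.06 in replicate 1 and 8.87, 8.77 and 9.18 in replicate 2. At day 14 the clones lay apart, and the difference of 0.57 since day 0 was not called (SE 0.24, adjusted p = 0.0907), while 2 ITGA4 probe sets of lower mean were called higher there, by 0.75 and 0.78.

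The second question was how the arrays labelled Sa/CD99 differed from parental SaOS-2 on each day. Of the 14 tested genes, only LAMA4 was called at day 0 (1 gene, with lower signal in the arrays labelled Sa/CD99). None was called at day 7 or day 14, where limma gave an unadjusted p of at most 0.05 for 3 and 2 genes (21.4% and 14.3% of the 14, against 21.4% and 17.4% of all genes tested). Over all genes tested, 1.16% were called on day 0, 1.84% on day 7 and 1.66% on day 14. For the 14 genes the median log2 difference was -0.05, -0.04 and -0.15 on the 3 days, against 0.01, 0.02 and -0.00 over all genes.

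**Figure D4:**
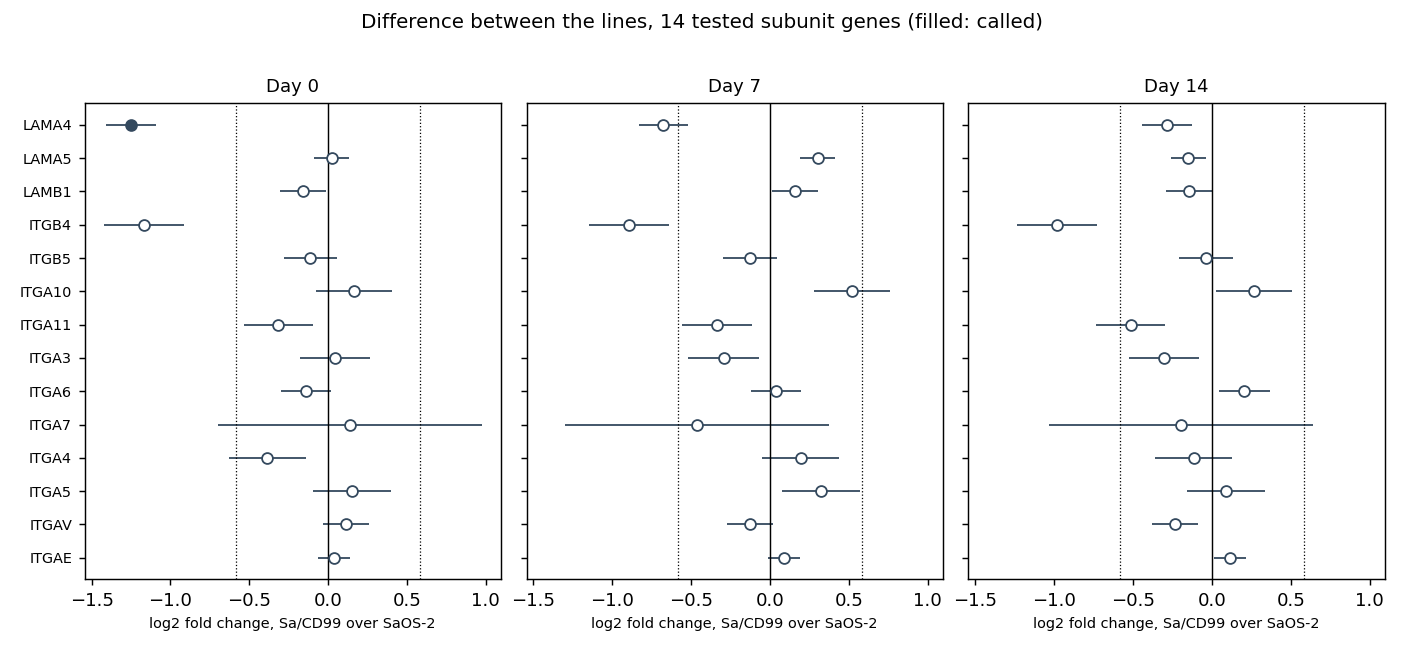
Log2 fold change of the arrays labelled Sa/CD99 over SaOS-2 (points) with its SE (bars) for the 14 tested genes at days 0, 7 and 14; filled points were called and dotted lines mark 1.5-fold. LAMA4 lies at -1.25, -0.68 and -0.29 on the 3 days and ITGB4 at -1.17, -0.89 and -0.98, and ITGA7 has the widest bars (SE 0.84).

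The fitted LAMA4 difference at day 0 was -1.25 (SE 0.16, adjusted p = 0.00883 by limma). It was -0.68 at day 7 and -0.29 at day 14 (adjusted p = 0.0585 and 0.402). At each of the 3 days both arrays labelled Sa/CD99 lay below both SaOS-2 arrays. The day 0 values of 5.55 and 5.21 against 6.55 and 6.72 lie around or under the signal minimum, with a mean of 6.64 in SaOS-2, so no fold is given for this call. The gene passed the filter through its later arrays. The call was lost without SaOS-2 replicate 1 of day 0 (-1.34, adjusted p = 0.0887), without replicate 2 (-1.17, adjusted p = 0.109) and in a fit of the day 0 arrays alone (adjusted p = 0.10). The other tested LAMA4 probe sets differed by -0.63 and -0.03 at day 0 and were not called (adjusted p = 0.212 and 0.976). The 20 nearest tested genes on chromosome 6 had a median difference of -0.04 at day 0 and ranged from -0.21 to 0.48.

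ITGB4 was not called with the probe set that stands for it, although both arrays labelled Sa/CD99 lay below both SaOS-2 arrays on each day. The line differences in ITGB4 were -1.17, -0.89 and -0.98 on the 3 days (limma, SE 0.26, adjusted p = 0.0663, 0.0996 and 0.0968). The ITGB4 probe set of lowest mean was called lower in the arrays labelled Sa/CD99 at day 0 (-1.15, adjusted p = 0.0474) and day 7 (-1.10, adjusted p = 0.0449), and the remaining one at day 7 (-1.09, adjusted p = 0.0484). At day 14 these gave -0.81 and -0.88 (adjusted p = 0.126 and 0.109). At day 0 the ITGB4 probe set of lowest mean lay under the signal minimum in all 4 arrays compared. At day 7 both arrays labelled Sa/CD99 lay under it, and the difference was at least 1.39-fold against it. This probe set exceeded the minimum on 5 arrays, the SaOS-2 arrays of days 7 and 14 and the clone wt22 array of day 14. It thus passed the signal filter through the line where it is high, so its line differences are a description. With array weights by line, the probe set that stands for ITGB4 was called at days 0 and 14.

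ITGA7 encodes the alpha-7 chain, the laminin receptor of skeletal muscle, and is where the clones parted most. With the probe set that stands for it, log2 values at days 0, 7 and 14 were 7.00, 7.01 and 7.57 in clone wt22 and 8.94, 9.10 and 9.70 in clone wt36, and in SaOS-2 7.93, 8.52 and 8.88 in replicate 1 and 7.72, 8.51 and 8.78 in replicate 2. Clone wt22 lay below and clone wt36 above both parental arrays on each day, so the mean difference between the lines was small beside its SE of 0.84, at 0.14, -0.46 and -0.19 (limma's adjusted p = 0.973, 0.775 and 0.937). ITGA7 was the only one of the 14 genes whose clones differed at least 1.5-fold the same way on all days (7.14%), against 193 of 6644 genes (2.90%). The second ITGA7 probe set gave 5.91, 6.26 and 6.55 in clone wt22 and 6.72, 6.43 and 7.09 in clone wt36, and in SaOS-2 7.00, 7.81 and 8.26 in replicate 1 and 7.08, 7.73 and 8.18 in replicate 2. Here both clones lay below both parental arrays, and this probe set was called lower in the arrays labelled Sa/CD99 at day 7 (-1.43, or at least 2.18-fold against the signal minimum that both clones were under, SE 0.25, adjusted p = 0.023) and day 14 (-1.40, adjusted p = 0.0284). Since day 0 the probe set that stands for ITGA7 gave differences of 0.09 and 0.67 at days 7 and 14 in the arrays labelled Sa/CD99 and 0.69 and 1.0 in SaOS-2, none of them called (adjusted p from 0.367 to 0.948). The second probe set rose in SaOS-2, by 0.73 at day 7 and 1.19 at day 14 (adjusted p = 0.0399 and 0.00841). The ITGA7 probe sets thus disagree on clone wt36. The second exceeded the signal minimum on all SaOS-2 arrays and on those of clone wt36 at days 0 and 14. It passed the signal filter mainly through the parental line, and its line differences carry that limit. Of 3 skeletal muscle markers, none exceeded the signal minimum on 4 or more arrays.

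**Figure D5:**
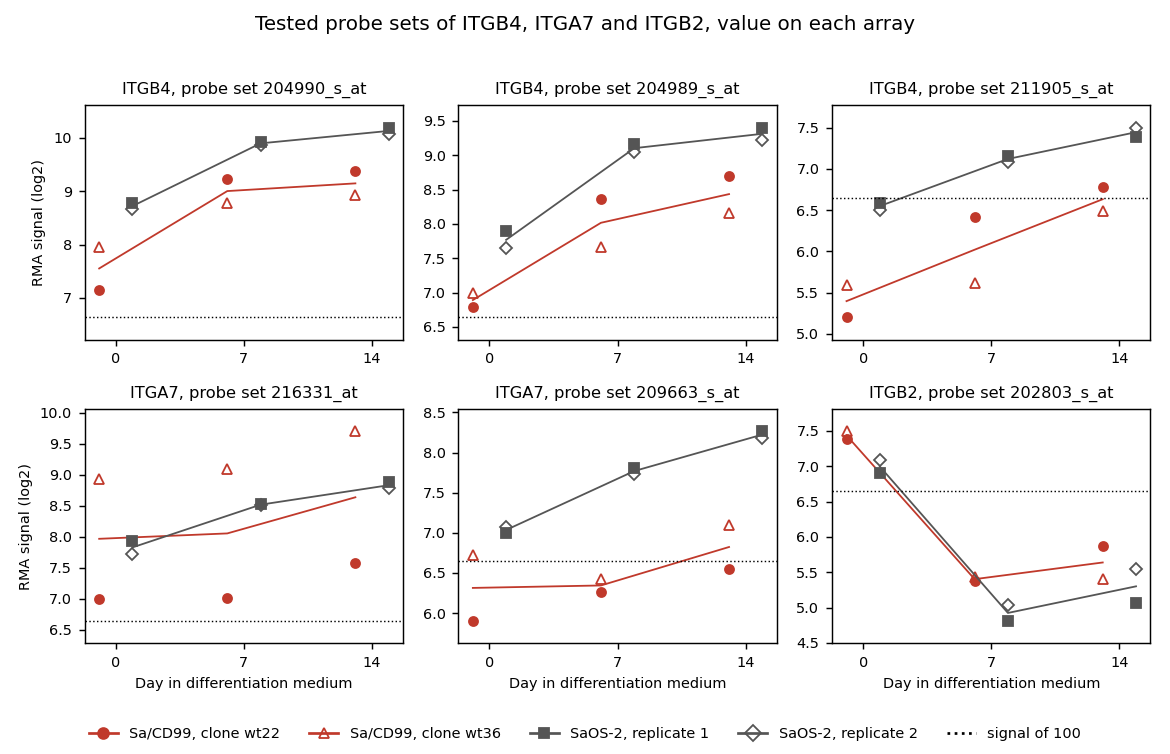
RMA signal (log2) on each array at days 0, 7 and 14 for every tested probe set of ITGB4, ITGA7 and ITGB2, with red points for the arrays labelled Sa/CD99 (filled wt22, open wt36), grey points for SaOS-2 and a dotted line at a signal of 100. In all 3 ITGB4 probe sets both arrays labelled Sa/CD99 lie under both SaOS-2 arrays on each day, though not every difference was called. The ITGA7 probe sets place clone wt36 on opposite sides of SaOS-2, and ITGB2 drops below the minimum after day 0.

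The remaining tested genes differed between the lines by at most 0.52 in size. ITGA10 had 0.16, 0.52 and 0.27 at days 0, 7 and 14 (SE 0.24, adjusted p from 0.242 to 0.863 by limma), and ITGA11 had -0.32, -0.34 and -0.51 (SE 0.22, adjusted p from 0.281 to 0.64). LAMA5 had 0.02, 0.30 and -0.15 (SE 0.11, adjusted p from 0.166 to 0.966), and LAMB1 had -0.16, 0.16 and -0.14 (SE 0.15, adjusted p from 0.543 to 0.746). ITGA4 had -0.39, 0.19 and -0.12 (SE 0.24), ITGA5 0.15, 0.32 and 0.09 (SE 0.25) and ITGA3 0.04, -0.29 and -0.30 (SE 0.22), with adjusted p from 0.462 to 0.966. These are chains of receptors for laminin or for fibronectin and its relatives. ITGA6 had -0.14, 0.04 and 0.21 (SE 0.16), ITGAV 0.11, -0.13 and -0.23 (SE 0.15), ITGAE 0.04, 0.09 and 0.11 (SE 0.10) and ITGB5 -0.11, -0.13 and -0.04 (SE 0.17), with adjusted p from 0.461 to 0.941. In the fit without filters, 2 genes that did not pass the signal filter were called: ITGB2 higher at day 0 (0.60, adjusted p = 0.0343) and ITGA1 lower at day 7 (-0.68, adjusted p = 0.0233) in the arrays labelled Sa/CD99.

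Whether the change since day 0 differed between the lines was tested by the interaction of line and day. No subunit gene and 0% of all genes tested were called at day 7, and likewise 0% at day 14. At an unadjusted p of at most 0.05 limma gave 1 of the 14 genes and 249 of 6644 at day 7, and 1 and 223 at day 14. The subunit gene was LAMA4 both times, whose change was larger in the arrays labelled Sa/CD99 by 0.58 at day 7 and 0.97 at day 14 (SE 0.22, unadjusted p from the limma fit 0.0294 and 0.00183, adjusted p = 0.999 and 0.926). The other tested LAMA4 probe sets gave -0.65 and -0.18 at day 7, both in the opposite direction, and -0.44 and 0.42 at day 14, on opposite sides of 0 (adjusted p = 0.999 each time). For ITGB4 and ITGA6 the interactions were 0.27 and 0.18 at day 7 and 0.19 and 0.35 at day 14 (SE 0.36 and 0.23).

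Genes around the subunits were read from lists by role. Of 38 integrin activators and focal adhesion adaptors, which tie integrin tails to actin and pass their signals on, 18 were tested. Between the lines none was called on any day, with 0, 1 and 0 of the 18 at an unadjusted p of at most 0.05 in limma, against 11.5%, 21.4% and 17.4% of all genes. In medium the arrays labelled Sa/CD99 had 6 lower and none higher at day 7, beside 7.59% lower and 8.22% higher among all genes. SaOS-2 had 7 lower and 1 higher, beside 9.44% and 10.9%. Caveolin CAV1 fell by 1.83 in the arrays labelled Sa/CD99 and by 1.66 in SaOS-2, and the talin gene TLN2, whose product activates integrins, fell by 1.25 and 1.04. The adaptors ZYX (-0.69 in both), ILK (-0.67 and -0.60) and TGFB1I1 (-0.80 and -1.05) fell in both as well. By day 14 each line had 2 lower, CAV1 and TLN2, and 1 higher, the kinase FYN (1.12 in the arrays labelled Sa/CD99 and 0.83 in SaOS-2), beside 12.3% lower and 7.42% higher among all genes in the arrays labelled Sa/CD99, and 7.31% and 7.42% in SaOS-2. The median of the list at day 7 was -0.43 in the arrays labelled Sa/CD99 and -0.39 in SaOS-2, against -0.02 and -0.04 over all genes.

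Of 22 laminin partners and laminin receptors of other families, 14 were tested. None was called between the lines, with 3, 2 and 2 of the 14 at an unadjusted p of at most 0.05 in limma on the 3 days, against 11.5%, 21.4% and 17.4% of all genes. Nidogen NID2, which links laminin to collagen IV, rose by 1.30 and 1.51 at days 7 and 14 in the arrays labelled Sa/CD99 and by 0.82 and 1.78 in SaOS-2. COL18A1, a basement membrane collagen, fell by 2.70 and 3.07 in the arrays labelled Sa/CD99 and by 3.11 and 3.02 in SaOS-2. HSPG2, the heparan sulfate proteoglycan perlecan, fell by 1.60 and 1.72 in the arrays labelled Sa/CD99 and by 1.49 and 1.32 in SaOS-2. In all, 1 was higher and 5 lower at day 7 and 4 higher and 3 lower at day 14 in the arrays labelled Sa/CD99, against 1 and 4, and 2 and 2, in SaOS-2. The shares among all genes were 8.22% higher and 7.59% lower at day 7 and 7.42% and 12.3% at day 14 in the arrays labelled Sa/CD99, and 10.9% and 9.44%, and 7.42% and 7.31%, in SaOS-2. The tetraspanin CD151, a partner of laminin-binding integrins, fell at day 7 in both, by 0.77 and 0.71.

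Of 24 integrin ligands other than laminins, 13 were tested. JAM2, a junctional adhesion molecule, differed by -2.84, -2.59 and -1.97 between the arrays labelled Sa/CD99 and SaOS-2 on the 3 days. It was the only ligand called between the lines, beside 1.16%, 1.84% and 1.66% of all genes called. At an unadjusted p of at most 0.05 limma gave 1, 1 and 4 of the 13, against 11.5%, 21.4% and 17.4% of all genes. The median of the list was 0.06, 0.04 and -0.32 on the 3 days, against 0.01, 0.02 and -0.00 over all genes. LGALS3BP, a secreted galectin-binding glycoprotein, rose at both days in both lines, by 0.98 and 1.09 in the arrays labelled Sa/CD99 and 0.97 and 1.26 in SaOS-2. The matricellular gene CCN2 fell at day 7 by 1.06 in the arrays labelled Sa/CD99 and by 0.89 in SaOS-2, and at day 14 by 1.57 in the arrays labelled Sa/CD99. The counts were 1 higher and 2 lower at day 7 and 1 and 4 at day 14 in the arrays labelled Sa/CD99, against 2 and 3, and 1 and 2, in SaOS-2. Among all genes 8.22% were higher and 7.59% lower at day 7 and 7.42% and 12.3% at day 14 in the arrays labelled Sa/CD99, and in SaOS-2 10.9% and 9.44%, and 7.42% and 7.31%. No gene of these 3 lists was called for an interaction, with at most 2 of a list at an unadjusted p of at most 0.05.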

How the data were processed

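Total RNA of each culture was hybridized to an Affymetrix HG-U133 Plus 2.0 array, 12 in all. The values deposited by the authors are log2 signals from RMA, 1 per probe set and array; affy and RMA are named in the submitters' processing notes, without versions. RMA subtracts background, gives the arrays 1 common distribution and combines the probes of a set, so levels of different probe sets were not compared. Array medians lay between 5.25 and 5.31.

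Genes were named from the platform annotation, updated by gene ID (41037 of 41091 probe sets with 1 gene matched). The 62 control probe sets were left out, 18677 probe sets passed the signal filter and 12894 both filters, which follow the study's methods. A model with 6 group means was fitted to the 12 arrays together (limma 3.58.1 under R 4.3.3, lmFit and eBayes; 6 residual degrees of freedom), with 9 comparisons. The median SE was 0.14 for 2 groups and 0.20 for an interaction and rests on few arrays, which bounds the precision. The fit was tested on simulated data with known changes. Where every array of the lower group was under the signal minimum, a fold was given as a bound against that minimum, from group means of log2 values. No bound was given where the mean of the brighter group was under the minimum as well. The words rose, fell, higher and lower stand for an adjusted p of at most 0.05 and a 1.5-fold change, also in the gene lists.

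Full statistics were given for every member called and for up to 12 further tested members. The members and gene lists were chosen with earlier results of these data known. Clone numbers name 1 transfected line throughout and so pair its arrays: over probe sets, deviations of the clones on 2 days had r = 0.58, 0.32 and 0.63, while those of the parental numbers, which mark nothing further in the labels, gave -0.04, 0.24 and -0.05. Alternatives were other filters, normalizations, probe sets, weights and moderation, a replicate block, the arrays compared alone, each array left out and, added after seeing the data, each clone left out. Promoter windows are RefSeq sequences.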

Additional observations from a re-analysis of the deposited data

How the results depend on the processing

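The 22 calls of a subunit gene in a comparison were recomputed under 24 alternatives each. None of the 528 values changed direction, 504 kept their call and 24 lost it. Counts of called genes that moved by more than 1.5 times were as follows. For the lines at day 0, against 1 called, there were 2 without filters, 2 with array weights, 0 with only the arrays compared, 4 without clone wt22, 3 without clone wt36 and 0 to 2 when single arrays were left out. At day 7, against 0, there were 1 without filters, 1 with quantile normalization, 2 with the probe set of largest interquartile range, 2 without clone wt22, 5 without clone wt36 and 0 to 2 without single arrays. At day 14, against 0, there were 1 with the largest range, 1 with array weights, 3 without either clone and 0 to 1 without single arrays. With only the arrays compared, Sa/CD99 kept 1 of 6 calls at day 7 and 2 of 5 at day 14, a fit with fewer arrays. Without clone wt22 the day 14 count was 8. In SaOS-2 at day 7 the largest range gave 8 against 5. Interactions, 0 in the 12-array fit and without any single array, numbered 2 and 4 at days 7 and 14 without clone wt22 and 3 and 1 without clone wt36, where the Sa/CD99 groups hold 1 array each, assumed to vary like the parental arrays. Leaving out single arrays gave 3 to 7 and 4 to 6 calls at days 7 and 14 in Sa/CD99 (3 without the day 0 array of clone wt36), and 4 to 6 and 5 in SaOS-2. The replicate block changed no count by more than 1.5 times, and the random block's correlation was 0.19. Array weights were 0.384 for the clones and 2.61 for SaOS-2. The cause of these shifts was not tested.

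With 2 arrays per group, small differences between lines were not detectable, and values under the signal minimum, including LAMA4 at day 0 on the arrays labelled Sa/CD99 and ITGA6 at day 14, carry less signal over background.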

Other observations

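ITGB8, the beta-8 chain that pairs with alpha-V and activates latent TGF-beta, stayed under the signal minimum on all 12 arrays (log2 3.63 to 4.82). In the limma fit without filters it was called at day 7 in SaOS-2, with 0.73 on the log2 scale (SE 0.14) and an adjusted p of 0.00678.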
